A study of Caenorhabditis elegans with 9 samples.

Results

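The genes described here make the fatty acids of Caenorhabditis elegans and put double bonds into them. They are 10 genes, chosen by name from the 46748 in the count table: pod-2, fasn-1, the desaturase genes fat-1 to fat-7, and sbp-1. All 10 had enough counts to be tested. RNA was measured in 9 libraries of whole wild-type N2 hermaphrodites with a labelled age of 5 days, in 3 groups of 3 that differ in the RNA interference (RNAi) construct. The control construct is L4440, the empty RNAi vector. The B0395.3 construct targets a gene of the carnitine acyltransferase family, and the H28O16.1 construct targets atp-1, the alpha subunit of mitochondrial ATP synthase. The labels are silent on whether replicate libraries stem from different worm cultures. The p-values therefore measure only the spread between libraries, which may be technical.

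Worms build most of their fatty acids from acetyl-CoA or by modifying those of their bacterial food. Acetyl-CoA carboxylase and fatty acid synthase make saturated chains, a set of desaturases inserts the first double bond to give monounsaturated acids, and further desaturases act in series with elongases to give polyunsaturated acids. The genes for the first double bond are known targets of SBP-1, the worm relative of the mammalian SREBP factors, and of nuclear hormone receptors, and they are expressed mainly in the intestine and hypodermis.

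The libraries held between 31236614 and 40990685 counts. Replicate 3 of H28O16.1 lay apart from its group: its chi-square per degree of freedom was 16.3 to replicate 1 and 11.8 to replicate 2, which stood at 5.36 to each other, and results that rest on it are given without it as well. The targeted mRNAs were low under their own labels. Expressed as CPM, which scales counts by the size of the library, atp-1 stood at 1966, 2003 and 1864 in L4440, at 1766, 1810 and 1709.9 in B0395.3 and at 69.7, 66.9 and 75.4 in H28O16.1. B0395.3 mRNA stood at 33.0, 35.6 and 32.3 CPM in L4440, at 12.5, 16.5 and 12.8 in B0395.3 and at 24.7, 23.6 and 28.4 in H28O16.1. Each target was also called lower under the other construct in the edgeR test described below. The log2 fold change against L4440 was -0.39 for B0395.3 mRNA in H28O16.1 (adjusted p = 0.00297). It was -0.14 for atp-1 in B0395.3 (adjusted p = 0.0245), a call that held in 9 of 14 alternative settings. Markers of intestine, germ line, oocytes, muscle and neurons had counts in every library for 8 of 8 genes each, those of hypodermis for 6 of 8 and those of sperm for 7 of 8.

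The desaturase genes differed widely in level in control worms, and fat-2 was the most abundant. Levels are given in RPKM, the CPM divided by the exon length in kilobases, so that genes can be compared. In L4440 fat-2, whose enzyme turns oleic into linoleic acid, stood at 926 ± 17.1 RPKM (SD, n = 3), at rank 131 of 14519 genes. The omega-3 desaturase gene fat-1 followed at 434 ± 10.7, then the stearoyl-CoA desaturase gene fat-6 at 345 ± 6.99, the polyunsaturated fatty acid desaturase gene fat-4 at 238 ± 2.29 and the palmitoyl-CoA desaturase gene fat-5 at 143 ± 5.27 RPKM.

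Below these lay fat-7, the paralog of fat-6, at 70.1 ± 8.24 RPKM, and the acetyl-CoA carboxylase gene pod-2 at 69.5 ± 2.90, whose ranges overlapped. The desaturase gene fat-3, which acts between fat-2 and fat-4 in the polyunsaturated series, stood at 55.2 ± 2.08 RPKM. The fatty acid synthase gene fasn-1 (17.5 ± 0.626) and the transcription factor gene sbp-1 (13 ± 1.08) were lowest. Apart from fat-7 and pod-2, no neighbours in this order had overlapping ranges in L4440. Together the 10 genes took 0.344% ± 0.00499 of the counts in L4440, 0.330% ± 0.0107 in B0395.3 and 0.342% ± 0.00752 in H28O16.1 (SD, n = 3).

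**Figure D1:**
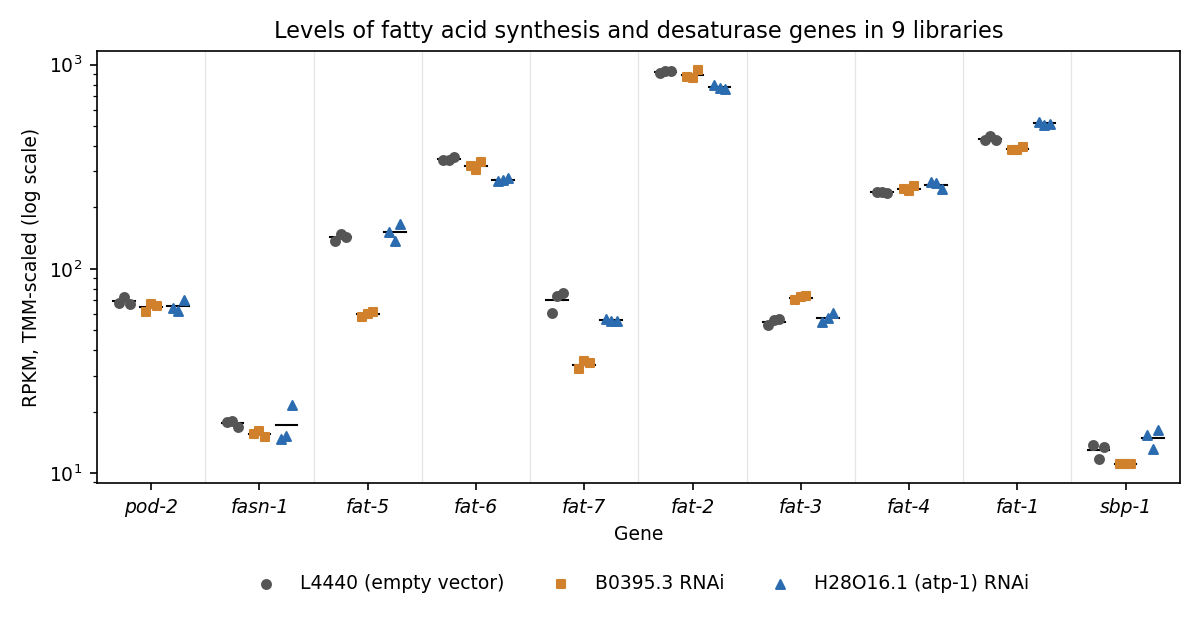
Level of each gene in each of the 9 libraries, in RPKM on a log axis, with 3 points per group and a bar at the group mean. fat-5 and fat-7 are lowest in the B0395.3 libraries, at 58.1 to 61.2 and 32.3 to 35.2 RPKM, and the 10 genes span from about 11.1 RPKM (sbp-1) to 938 RPKM (fat-2).

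In the genome (WBcel235, Ensembl 115 annotation) 5 of the 10 genes lie on chromosome IV, in part next to each other. There, fat-4 (9799429 to 9802226) and fat-3 (9803023 to 9806119) are neighbours on the plus strand with a gap of 796 bp, and fat-1 (13315644 to 13318811) and fat-2 (13323873 to 13326395) are neighbours on the plus strand with a gap of 5061 bp. The other gene on that chromosome, fat-6, spans 11913692 to 11915687 on the minus strand. Its relatives lie on chromosome V, with fat-7 from 7151353 to 7153146 on the minus strand and fat-5 from 17725004 to 17726818 on the plus strand. The remaining genes are pod-2 on chromosome II (1136785 to 1152705, plus strand), sbp-1 on chromosome III (11428367 to 11442566, minus strand) and fasn-1 on chromosome I (8975366 to 8986540, minus strand). Exons of other genes on the opposite strand covered 2.5% of the exon bases of fat-5 (twk-42), 2.0% of those of pod-2 (W09B6.4) and 1.4% of those of sbp-1 (idpc-1), and the library kit does not mark strand.

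Worms treated against B0395.3 were compared with empty-vector worms to see how these genes respond to an RNAi against a carnitine acyltransferase relative. The largest change was a fall of fat-5 and fat-7, to less than 50% of their control level, while their paralog fat-6 differed little. fat-3 rose, and fat-1 and sbp-1 fell slightly. In all, 1 of the 10 genes rose and 5 fell at an adjusted p under 0.05 (edgeR quasi-likelihood test, Benjamini-Hochberg adjustment over 14622 genes), where 12.6% of all genes were called higher and 14.6% lower. Their median log2 fold change was -0.14, against 0.008 over all genes.

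The palmitoyl-CoA desaturase gene fat-5 stood at 137, 148 and 144 RPKM in L4440 and at 58.1, 60.1 and 61.2 RPKM in B0395.3. The groups were far apart relative to their spread, and fat-5 fell by 1.26 log2 units (SE 0.06, adjusted p = 6.63e-09), the 229th largest of 2140 falls. The stearoyl-CoA desaturase gene fat-7 stood at 60.7, 73.3 and 76.2 RPKM in L4440 and at 32.3, 35.2 and 34.5 RPKM in B0395.3. Replicate 1 was the lowest L4440 library but lay above every B0395.3 library, and the fall was 1.04 log2 units (SE 0.07, adjusted p = 1.85e-07), the 369th largest.

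The paralog fat-6 stood at 340.2, 342 and 353 RPKM in L4440 and at 319.9, 306 and 335 RPKM in B0395.3. The groups did not overlap but lay close, with a log2 fold change of -0.11 (SE 0.03, adjusted p = 0.0295). The adjusted p rose to 0.0611 when replicate 2 of the controls was left out and to 0.128 when their replicate 3 was. It was 0.0833 and 0.148 when replicate 1 or 2 of the treated group was dropped, and 0.375 when library totals alone were used for scaling. fat-5, fat-6 and fat-7 encode related enzymes, and the sources used here do not say how reads shared between paralogs were counted. The split between them is uncertain to that extent.

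The make-up of these 3 transcripts therefore differed between the groups. Of their summed RPKM, fat-6 held 61.9% ± 1.24 (SD, n = 3) in L4440 and 77.3% ± 0.932 in B0395.3, fat-5 held 25.6% ± 0.597 and 14.4% ± 0.460, and fat-7 held 12.5% ± 1.09 and 8.22% ± 0.474. The sum itself was 558 ± 17.9 RPKM in L4440 and 414 ± 15.1 in B0395.3, without overlap. The log2 ratio of fat-7 to fat-6 lay between -2.49 and -2.21 in L4440 and between -3.31 and -3.12 in B0395.3, and that of fat-5 to fat-6 between -1.31 and -1.21 and between -2.46 and -2.35.

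**Figure D2:**
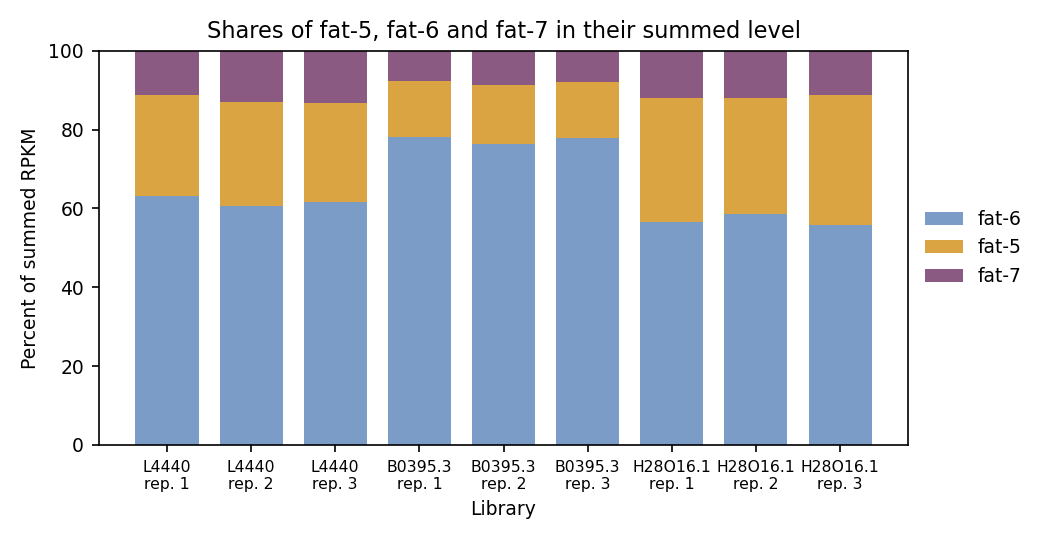
Percent of the summed RPKM of fat-5, fat-6 and fat-7 held by each gene, with 1 stacked bar per library. fat-6 holds 76.3% to 78.0% in the B0395.3 libraries, against 60.7% to 63.2% in L4440 and 55.8% to 58.6% in H28O16.1.

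Intestinal and muscle markers moved in the same libraries. The summed level of 8 intestinal markers ranged from 754 to 848 CPM in control libraries, from 533 to 548 under B0395.3 RNAi and from 824 to 991 under H28O16.1 RNAi. Under B0395.3 RNAi 4 of them fell, 1 rose (the peptide transporter gene pept-1) and 3 did not pass. Of all genes 14.6% were called lower and 12.6% higher there. Under H28O16.1 RNAi 3 of the intestinal markers rose and 3 fell (log2 fold changes from -0.92 to 0.66), where 57.6% of all genes were called. Most of the sum came from the protease gene asp-1, at 545 ± 36.1 CPM in L4440 and 325 ± 5.05 in B0395.3. The intestinal transcription factor gene elt-2 stood at 9.56 ± 0.158 CPM in L4440 and 9.72 ± 0.563 in B0395.3 and did not pass. For hypodermal markers the sums, with the groups in the same order, ranged from 307 to 337, from 269.7 to 276 and from 315 to 327 CPM. The sums hide single markers. Of the 8 hypodermal markers 2 fell and none rose in B0395.3, where 27.2% of all genes were called. In H28O16.1 4 fell and 2 rose (median log2 fold change -0.62, lowest -3.28), where 57.6% of all genes were called. For muscle markers the sums ranged from 656 to 797, from 415 to 476 and from 674 to 1038 CPM. Of the 8 muscle markers 5 fell and none rose in B0395.3 (log2 fold changes from -1.26 to -0.4), where 27.2% of all genes were called. In H28O16.1 2 rose and none fell (-0.58 to 0.47), where 57.6% of all genes were called. The part of the intestinal, hypodermal and muscle markers in the fall of fat-5 and fat-7 was not tested. In whole worms fewer cells of a type and less RNA per cell cannot be told apart.

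Among the polyunsaturated fatty acid desaturases, fat-3 rose and the rest moved little. The fat-3 gene stood at 52.8, 56.2 and 56.5 RPKM in L4440 and at 70.7, 72.7 and 73.3 RPKM in B0395.3. All 3 treated libraries lay above all controls, with a log2 fold change of 0.39 (SE 0.04, adjusted p = 1.39e-05). Its neighbour fat-4, whose enzyme takes a later step, did not pass at 0.05 log2 units (SE 0.03, adjusted p = 0.261), although its groups did not overlap (235 to 239 and 239.8 to 255 RPKM). With library totals alone fat-4 passed as higher (0.12, adjusted p = 0.0177). The difference between the responses of fat-3 and fat-4 was not tested. fat-2 did not pass either, at -0.05 (SE 0.04, adjusted p = 0.306), and its groups overlapped. fat-1 fell from 427, 446 and 428 RPKM to 380.3, 383 and 394 RPKM, without overlap (log2 fold change -0.17, SE 0.03, adjusted p = 0.000716).

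Of the regulator and the genes at the start of the pathway, sbp-1 alone passed. It stood at 13.7, 11.7 and 13.4 RPKM in L4440 and at 11.1 RPKM in each B0395.3 library, a log2 fold change of -0.22 (SE 0.07, adjusted p = 0.0402). The call was lost when control replicate 1 (adjusted p = 0.15) or 3 (0.134) was dropped, when any treated library was dropped (0.0979, 0.105 and 0.099 for replicates 1, 2 and 3), and with library totals alone (0.115). pod-2 (log2 fold change -0.10, adjusted p = 0.16) and fasn-1 (-0.17, adjusted p = 0.267) did not pass, though neither had overlapping groups. Without H28O16.1 replicate 3, whose spread enters the shared fit, both passed, at adjusted p = 0.0416 for pod-2 and 0.000329 for fasn-1, and both also passed in a fit of the 6 libraries alone (0.0439 and 0.000432) and with no filter (0.0215 and 6.06e-05). The B0395.3 and L4440 libraries did not overlap for 9 of the 10 genes, against 47.1% of all genes. Leaving out control replicate 3, or treated replicate 1 or 2, left 3 of these genes called lower, and leaving out H28O16.1 replicate 3 gave 7. With library totals alone 2 were higher and 3 lower. Over all genes 46.2% of the 3976 calls were higher, and 67% of 4721 with library totals alone.

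Worms treated against atp-1 were compared with the same controls. The changes were small in size and went both ways along the pathway: fat-6, fat-7 and fat-2 fell by at most 20.7%, while fat-1 rose by 18.9%, fat-4 by 8.81% and sbp-1 by 15.1%. Of the 10 genes 3 rose and 3 fell, where 26.3% of all genes were called higher and 31.2% lower, so the share of called genes, 6 of 10, was close to the background of 57.6%. Their median log2 fold change was 0.02, against -0.004 over all genes.

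Among the monounsaturated fatty acid genes, fat-6 stood at 269.7, 273 and 278 RPKM in H28O16.1, below all 3 controls, a log2 fold change of -0.34 (SE 0.03, adjusted p = 1.71e-06). fat-7 stood at 56.8, 55.5 and 55.6 RPKM, also below all controls (log2 fold change -0.32, SE 0.07, adjusted p = 0.00108). The palmitoyl-CoA desaturase gene fat-5 stood at 151, 137 and 165 RPKM and overlapped the controls (log2 fold change 0.08, SE 0.05, adjusted p = 0.21). It passed as higher without H28O16.1 replicate 2 (adjusted p = 0.0148), with library totals alone (0.0404) and with no filter (0.0284). The log2 ratio of fat-7 to fat-6 lay between -2.32 and -2.25, within the range of the controls. That of fat-5 to fat-6 lay between -0.99 and -0.76, above the controls at -1.31 to -1.21. The summed level of fat-5, fat-6 and fat-7 was 481 ± 16.8 RPKM (SD, n = 3). It ranged from 466 to 499 RPKM, below the controls at 538 to 573 RPKM.

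The neighbours fat-1 and fat-2 went in opposite directions. fat-1 stood at 524, 509 and 514 RPKM in H28O16.1, above all controls, a log2 fold change of 0.25 (SE 0.03, adjusted p = 6.79e-06). fat-2 stood at 798, 769.9 and 763 RPKM, below all controls at 906, 937 and 935 RPKM (log2 fold change -0.25, SE 0.04, adjusted p = 4.57e-05). Because these are the most abundant of the desaturase mRNAs, the share of fat-2 in all desaturase counts ranged from 40.5% to 40.7% in control libraries, from 42.2% to 43.1% under B0395.3 RNAi and from 35.2% to 36.1% under H28O16.1 RNAi. fat-4 stood at 265, 264 and 246 RPKM and rose slightly (log2 fold change 0.12, SE 0.03, adjusted p = 0.00684), and fat-3 did not pass (0.07, SE 0.04, adjusted p = 0.20) except with library totals alone (0.12, adjusted p = 0.0391) or without H28O16.1 replicate 1 (0.11, adjusted p = 0.0399).

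The regulator gene sbp-1 stood at 15.4, 13.1 and 16.2 RPKM in H28O16.1 and overlapped the controls, with a log2 fold change of 0.20 (SE 0.07, adjusted p = 0.0305). The call was lost when control replicate 2 (adjusted p = 0.137) or treated replicate 1 (0.0792) or 3 (0.084) was dropped, and in a fit of the 6 libraries alone (0.0558). fasn-1 stood at 14.6, 15.1 and 21.6 RPKM, with replicate 3 above and the other two below every control (16.8 to 18 RPKM), and did not pass (log2 fold change -0.03, SE 0.11, adjusted p = 0.81). pod-2, at 64.0, 62.1 and 70.7 RPKM, did not pass either (-0.08, adjusted p = 0.17). Without replicate 3 both passed as lower, fasn-1 at -0.24 (adjusted p = 2.15e-05) and pod-2 at -0.14 (adjusted p = 0.00774), and 5 of the 10 genes were called lower. The groups did not overlap for 5 of the 10 genes, against 61.4% of all genes. The oocyte markers, another large source of RNA in these worms, summed to 9243 to 9575 CPM in L4440 and 7699.7 to 8048 in H28O16.1. In B0395.3 they summed to 8721 to 9009 CPM, also below L4440. Of the 8 markers 6 fell and 2 rose in H28O16.1, where 57.6% of all genes were called. In B0395.3 3 fell and none rose, where 27.2% of all genes were called. The part of these markers in the differences of the 10 genes was not tested.

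**Figure D3:**
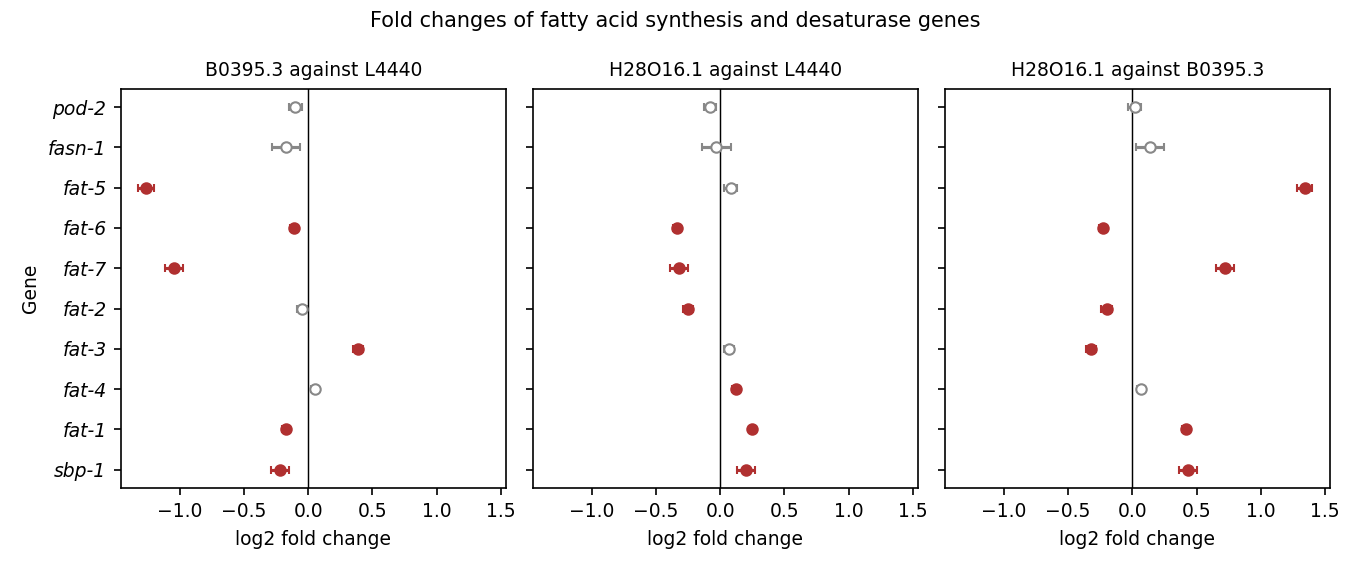
Log2 fold change of each gene in the 3 comparisons, with bars of 1 standard error; filled red points passed an adjusted p of 0.05 and open points did not. fat-5 lies at -1.26 in B0395.3 against L4440, at 0.08 in H28O16.1 against L4440 and at 1.34 in H28O16.1 against B0395.3.

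Set against each other directly, the RNAi treatments differed most in fat-5 and fat-7. This comparison tests the difference between the responses to them, which share the L4440 controls. Of the 10 genes 4 were higher and 3 lower in H28O16.1 than in B0395.3, where 30.5% of all genes were higher and 32.1% lower (62.6% called), and 7 did not overlap, against 66.8% of all genes. fat-5 was higher by 1.34 log2 units (SE 0.06, adjusted p = 3.45e-10), fat-7 by 0.72 (SE 0.07, adjusted p = 1.15e-06), sbp-1 by 0.43 (SE 0.07, adjusted p = 0.000221) and fat-1 by 0.42 (SE 0.03, adjusted p = 4.22e-08). The lower genes were fat-3 at -0.32 (SE 0.04, adjusted p = 1.58e-05), fat-6 at -0.23 (SE 0.03, adjusted p = 5.12e-05) and fat-2 at -0.20 (SE 0.04, adjusted p = 0.000294). pod-2 (0.02, SE 0.05), fasn-1 (0.14, SE 0.11) and fat-4 (0.07, SE 0.03) did not pass. fat-4 passed without H28O16.1 replicate 3 (0.10, adjusted p = 0.00512), and with no filter both fat-4 (0.09, adjusted p = 0.0297) and fasn-1 (0.16, adjusted p = 0.000146) did, whereas fasn-1 stood at -0.06 without H28O16.1 replicate 3. These 7 calls held in all 14 alternatives tried.

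Genes that work beside these enzymes were described in 6 lists of 58 genes, of which 56 were tested. Under B0395.3 RNAi 3 rose and 27 fell, and under H28O16.1 RNAi 11 rose and 28 fell. As shares of the genes tested these are 5.36% higher and 48.2% lower in B0395.3, and 19.6% higher and 50% lower in H28O16.1. Over all genes 12.6% were called higher and 14.6% lower in B0395.3, and 26.3% and 31.2% in H28O16.1. The lists were chosen with earlier results of these data known, so these shares cannot show that the lists differ from other genes. The 3 that rose in B0395.3 became 1 when control replicate 1 or treated replicate 2 or 3 was dropped, and 5 with library totals alone or in a fit of the 6 libraries. The 11 that rose in H28O16.1 became 19 with library totals alone.

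The elongases lengthen the chains that the desaturases act on, and most genes listed for elongation fell under both constructs. The list holds the elo genes and others that are not elongases, among them acs-1. Of its 12 tested genes (elo-7 was too low), 10 fell and none rose in B0395.3, with a median log2 fold change of -0.24. In H28O16.1 9 fell and 1 rose, with a median of -0.27. Of all genes 14.6% were called lower in B0395.3 and 31.2% in H28O16.1. The palmitate elongase gene elo-2 stood at 92.7 ± 6.03 CPM in L4440, 79.8 ± 4.66 in B0395.3 and 37.1 ± 0.611 in H28O16.1 (SD, n = 3), log2 fold changes of -0.22 (adjusted p = 0.00626) and -1.32 (adjusted p = 4.42e-10). elo-6, which with elo-5 makes branched-chain acids, stood at 244 ± 13.7 CPM in L4440, 122 ± 6.43 in B0395.3 and 139.6 ± 13.9 in H28O16.1 (-1 and -0.81, adjusted p = 1.33e-07 and 1.79e-07). elo-5 fell by 0.49 and 0.83 log2 units, and acs-1, which activates branched-chain acids, by 0.54 and 0.14. elo-1, an elongase of the polyunsaturated series, fell by 0.22 in B0395.3 (adjusted p = 3.78e-05) and did not pass in H28O16.1 (0.02, adjusted p = 0.54).

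Desaturases take electrons from cytochrome b5 and its reductases, and the cytochrome b5 genes moved apart. cytb-5.1 stood at 71.0 ± 1.87 CPM in L4440, 57.4 ± 1.71 in B0395.3 and 33.5 ± 0.399 in H28O16.1 (log2 fold changes -0.31 and -1.08, adjusted p = 4.07e-05 and 1.29e-10). cytb-5.2 stood at 74.4 ± 2.51, 85.3 ± 2.18 and 98.3 ± 1.92 CPM (0.20 and 0.40, adjusted p = 0.000847 and 4.17e-07). The reductase gene hpo-19 fell by 0.22 in B0395.3 (adjusted p = 0.000193) and stood at -0.01 in H28O16.1 (adjusted p = 0.781). T05H4.4, at under 1 CPM, fell by 1.19 in H28O16.1 (adjusted p = 0.00124) and did not pass in B0395.3 (-0.37, adjusted p = 0.262). Of these 4 genes, 1 rose and 2 fell in each comparison, where 27.2% of all genes were called in B0395.3 and 57.6% in H28O16.1.

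Among 9 genes that supply acetyl-CoA, biotinylated enzyme and NADPH, 5 fell and none rose in B0395.3 (median -0.10), where 27.2% of all genes were called. In H28O16.1 5 fell and 1 rose (median -0.17), where 57.6% of all genes were called. The acetyl-CoA synthetase gene acs-19 stood at 641 ± 16.5 CPM in L4440, 577 ± 10.5 in B0395.3 and 401 ± 8.05 in H28O16.1 (log2 fold changes -0.15 and -0.68). The phosphogluconate dehydrogenase gene T25B9.9 fell by 0.36 and 0.57 log2 units. The ATP citrate lyase gene acly-2 rose by 0.30 in H28O16.1 (adjusted p = 8.74e-07) and did not pass in B0395.3 (0.03). The malic enzyme gene men-1 fell by 0.18 in B0395.3 and did not pass in H28O16.1 (0.04).

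The list of 12 regulators of lipid synthesis genes leaves out sbp-1, which is described above and stood at -0.22 log2 units in B0395.3. Of these 12, 2 rose and 3 fell in B0395.3, within a range of -0.13 to 0.12 log2 units. In H28O16.1 2 rose and 3 fell, within -0.59 to 0.38. Of all genes 27.2% were called in B0395.3 and 57.6% in H28O16.1. scp-1, the relative of the SREBP cleavage-activating protein, stood at 120.4 ± 1.94 CPM in L4440, 113 ± 0.501 in B0395.3 and 80 ± 4.09 in H28O16.1 (log2 fold changes -0.09 and -0.59, adjusted p = 0.0751 and 1.52e-08). paqr-2 and iglr-2 encode partners in the control of membrane fluidity. In H28O16.1 paqr-2 rose by 0.38 log2 units and iglr-2 fell by 0.39. In B0395.3 paqr-2 stood at 0.12 (adjusted p = 0.0181) and iglr-2 at -0.10 (0.0203). The B0395.3 call of paqr-2 was lost without L4440 replicate 1 (adjusted p = 0.0713) or without treated replicate 2 (0.0772) or 3 (0.0509). That of iglr-2 was lost with library totals alone (adjusted p = 0.409), with DESeq2 (0.0542), without control replicate 1 (0.0594) or 3 (0.124), and without treated replicate 1 (0.0631) or 2 (0.0914). The nuclear receptor gene nhr-66 stood at -0.13 in B0395.3 (adjusted p = 0.00928), a call lost with library totals alone (0.114) and without control replicate 2 (0.0505) or 3 (0.0542), and did not pass in H28O16.1 (0.06).

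In phosphatidylcholine synthesis, 3 of 9 tested genes (ckb-3 was too low) fell and none rose in B0395.3 (median -0.04), where 27.2% of all genes were called. In H28O16.1 7 fell and none rose (median -0.38), where 57.6% of all genes were called. sams-1, which makes the methyl donor S-adenosylmethionine, stood at 55.0 ± 11.7 CPM in L4440, 23.1 ± 0.786 in B0395.3 and 27.8 ± 3.95 in H28O16.1 (log2 fold changes -1.25 and -0.98, adjusted p = 1.35e-05 and 2.85e-05). The phosphoethanolamine methyltransferase gene pmt-2 fell by 0.90 and 0.54 log2 units. In the other branch, which starts from choline, the cytidylyl transferase gene pcyt-1 stood at 46.3 ± 0.855 CPM in L4440, 44.9 ± 2.50 in B0395.3 and 21.7 ± 1.66 in H28O16.1 (-0.04 and -1.09, adjusted p = 0.617 and 6.21e-09). The choline kinase gene ckb-2 fell by 0.97 in H28O16.1 and did not pass in B0395.3 (0.18, adjusted p = 0.166). The phosphotransferase gene cept-2 fell by 0.16 and 0.12.

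Of 10 genes of triacylglycerol synthesis and storage, 4 fell and none rose in B0395.3 (median -0.07), where 27.2% of all genes were called. In H28O16.1 6 rose and 2 fell (median 0.10), where 57.6% of all genes were called. With the treatments set against each other directly, 6 of the 10 were higher and 1 lower in H28O16.1 than in B0395.3 (median 0.15), where 62.6% of all genes were called. The diacylglycerol acyltransferase gene dgat-2 stood at 12.5 ± 0.487 CPM in L4440, 8.32 ± 0.415 in B0395.3 and 24.7 ± 3.92 in H28O16.1 (log2 fold changes -0.59 and 0.97, adjusted p = 0.000931 and 1.80e-06), and the direct comparison of the treatments gave 1.56 (SE 0.10, adjusted p = 2.27e-08). The acyltransferase gene acl-4 fell under both (-0.31 and -0.44), acl-2 rose in H28O16.1 (0.28) and did not pass in B0395.3 (0.09), and the lipid droplet perilipin gene plin-1 fell by 0.20 and 0.16.

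Some further calls in these lists turned on scaling or on the libraries in the fit. With library totals alone, elo-1 (0.07, adjusted p = 0.0222), men-1 (0.09, 0.0118) and nhr-66 (0.11, 0.00535) passed as higher in H28O16.1, acly-2 (0.09, 0.0224) and acl-2 (0.15, 0.0178) did in B0395.3, and cept-2 no longer passed in H28O16.1 (-0.07, 0.0712). In a fit of the 6 libraries compared, scp-1 (-0.09, adjusted p = 0.00961), acl-2 (0.09, 0.0333) and ckb-2 (0.18, 0.0123) passed in B0395.3. Dropping 1 H28O16.1 library from the shared fit also let them pass in B0395.3, scp-1 without replicate 2 (adjusted p = 0.0274) or 3 (0.0258), acl-2 without replicate 3 (0.0329) and ckb-2 without replicate 1 (0.0278).

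**Figure D4:**
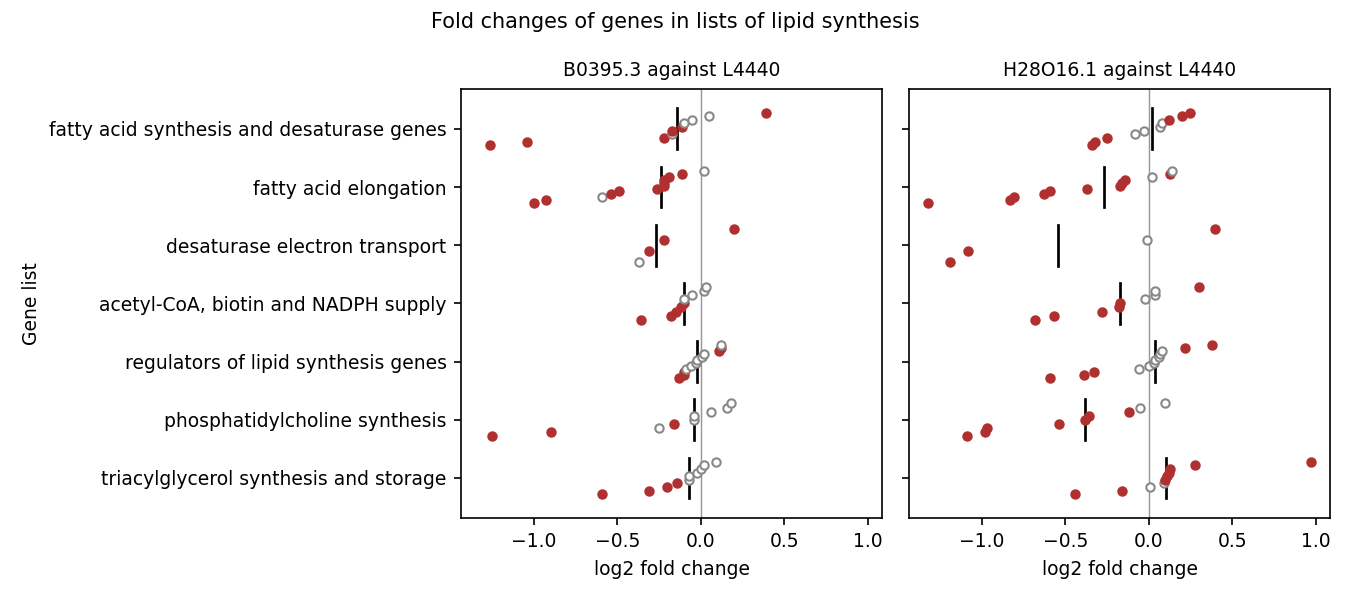
Log2 fold change of every tested gene in the lists of lipid synthesis, by list, for each RNAi group against L4440; filled red points passed an adjusted p of 0.05, open points did not, and the black bar is the list's median. Among the elongation genes most points lie below 0 in both panels (medians -0.24 and -0.27).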

How the data were processed

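The deposited table gives whole-number counts per gene, 1 column per library, made by the authors without normalization. Tools named in the submitters' processing notes are featureCounts 1.4.6-p4, STAR 2.4.1d and bcl2fastq 1.8.4, with the build WBcel235. The sources used here do not state the counting parameters. The libraries were made with a TruSeq RNA v2 kit, per the labels' protocols. A deposited RPKM table was not used; RPKM here were computed from the counts with the exon length of the Ensembl 115 annotation and TMM-scaled library sizes. filterByExpr (minimum count 10) kept 14622 of 46748 genes. Tests used edgeR (4.0.16, under R 4.3.3; TMM, quasi-likelihood fit over all 9 libraries, two-sided, Benjamini-Hochberg over all genes tested, threshold 0.05), checked on simulated counts; the biological coefficient of variation was 4.64%. The simulated counts followed the model of the fit, with few genes changed and none by a small fold. That check therefore does not cover the scaling or small changes. SE is the log2 fold change divided by the root of F. With 3 libraries a group, the smallest p of an exact permutation test is 0.1, so ratios and levels are described without a test. No 2 libraries of a group agreed within sampling noise (chi-square per degree of freedom 2.54 to 16.3). The labels give no batch. Replicates were numbered in accession order. Alternatives were RLE scaling, library totals, DESeq2 1.42.0, no filter, the 6 libraries compared, and each library left out. Named genes are the 10 genes, both RNAi targets, up to 3 genes per list with the smallest p in each comparison with L4440, and the 3 genes nearest in pattern to each of 4 desaturases. elt-2, asp-1, pept-1, twk-42, W09B6.4, idpc-1, elo-7 and ckb-3 are named beside these. The genes and lists were chosen with earlier results of these data known.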

Additional observations from a re-analysis of the deposited data

How the results depend on the processing

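No paired analysis was possible because the labels number the libraries serially and give no replicate number that groups share. The falls of fat-5, fat-7 and fat-1 and the rise of fat-3 in B0395.3 against L4440 held in all 14 alternatives. So did the calls of fat-6, fat-7, fat-2, fat-1 and fat-4 in H28O16.1 against L4440. Scaling by library totals alone gave 5 of the 10 genes higher in H28O16.1 and 2 higher and 3 lower in B0395.3, 19 and 5 higher in the pathway lists, and 3164 genes higher in B0395.3 against 1836; a fit of 6 libraries gave 5 higher in the B0395.3 lists. Scaling by library totals alone shifted the median of all genes by up to 0.061 log2 units. With 1 library left out, the 10 genes gave 3 to 5 lower in H28O16.1 and 3 to 7 lower in B0395.3, and the lists 1 to 4 higher in B0395.3. Changes of sign touched only values that did not pass: fasn-1 in H28O16.1 against L4440 at 0.02 with library totals and 0.07 or 0.05 without H28O16.1 replicate 1 or 2 (range with 1 library left out -0.24 to 0.07), and against B0395.3 at -0.06 without replicate 3 (-0.06 to 0.24); pod-2 against B0395.3 at -0.02 and -0.04 without B0395.3 replicate 1 or H28O16.1 replicate 3 (-0.04 to 0.06); and, with library totals in B0395.3, fat-2 at 0.01 and pcyt-1 at 0.02. hpo-19 in H28O16.1 stood at 0.01 (RLE, DESeq2, no filter), 0.04 (library totals), 0 (without L4440 replicate 1) and 0.02 (without H28O16.1 replicate 3), with 1 library left out from -0.05 to 0.02. The cause of these changes was not tested. Depth limits genes of low count: T05H4.4 lay under 1 CPM, and elo-7 and ckb-3 were too low to test.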

Other observations

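The genes whose pattern over the 9 libraries was most like that of a desaturase were found by the root mean square difference of log2 CPM, each gene centred on its own mean, among 8503 genes that averaged 5 CPM or more. For fat-5 they were F13H8.3 (0.0733 log2 units), the kynureninase gene kynu-1 (0.0755) and the flavin monooxygenase gene fmo-3 (0.0825), where fat-5 itself deviated from its mean by 0.615. kynu-1 stood at 76.5 CPM in L4440, 34.9 in B0395.3 and 84.4 in H28O16.1. For fat-7 they were W05E10.1 (0.103), PDB1.1 (0.108) and F38B6.4 (0.113), where fat-7 deviated by 0.442. PDB1.1 stood at 23.6, 12.4 and 18.8 CPM in the same order.

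fat-6 and fat-2 had flatter patterns, deviating from their means by 0.144 and 0.115. The nearest genes to fat-6 were ncbp-1 (0.029), which encodes a cap-binding protein, the helicase gene drh-3 (0.0294) and bre-4 (0.0313). The nearest to fat-2 were T09F3.5 (0.0268), the cyclin T gene cit-1.1 (0.0283) and rbm-25 (0.0284). Among the 10 genes themselves fat-6 and fat-2 were the closest pair, at 0.0458, and fat-5 and fat-3 the farthest apart, at 0.781. In this measure fat-5 stood 0.664 from its relative fat-6.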
